A study of Homo sapiens with 6 samples.

Results

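The genes described here act in HLA class I antigen presentation. They were taken from the deposited count table by their symbols: HLA-B, HLA-C, HLA-E, B2M, TAP1, TAP2, TAPBP, PSMB8 and PSMB9, which are 9 of the 23368 genes in the table. All 9 passed the filter on low counts and were among the 11097 genes tested. The cells were H2122, an established line from a human lung adenocarcinoma. They were transfected for 48 hours with either control shRNA or LYCAT shRNA, and RNA of 3 libraries per shRNA was sequenced; LYCAT is an older name of the gene LCLAT1. The series title speaks of a knockout, but the sample labels give an shRNA in every library. The labels name neither the shRNA sequences nor the number of shRNAs used, and give no culture, passage or day for any library. Effects of the LYCAT shRNA on other transcripts and effects of less LCLAT1 cannot be told apart in this design. The p-values therefore rest on a library-to-library spread that may be only technical.

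Class I molecules display short peptides from inside the cell to CD8 T cells and to natural killer (NK) cells. The polymorphic heavy chains HLA-B and HLA-C and the less variable HLA-E each pair with the invariant light chain beta-2 microglobulin, encoded by B2M. Peptides come mostly from the proteasome, whose interferon-inducible catalytic subunits PSMB8 and PSMB9 can replace constitutive ones. The TAP1-TAP2 transporter moves the peptides into the endoplasmic reticulum, where tapasin, encoded by TAPBP, holds empty class I molecules at the transporter until they bind a peptide. Tumour cells can lower their visibility to CD8 T cells by reducing any of these steps.

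With LYCAT shRNA, mRNA of the chains of the class I molecule itself was lower for HLA-B, HLA-C and B2M, while the peptide supply genes did not pass the test. HLA-B fell 1.35-fold, HLA-C 1.19-fold and B2M 1.14-fold. HLA-E, TAP1, TAP2, TAPBP, PSMB8 and PSMB9 did not pass. Thus 3 of the 9 genes fell and 0 rose by edgeR's quasi-likelihood test at an adjusted p under 0.05; at an unadjusted p under 0.05 the same counts were 3 lower and 0 higher, and DESeq2 and limma-voom also gave 3 and 0. Of all tested genes 9.26% fell, 9.81% rose and 19.1% changed in either direction. The median log2 fold change was -0.04 over the 9 genes and -0.01 over all tested genes. The B2M call was lost when single libraries were left out, as described with its values. A difference between the chains and the peptide supply genes as sets was not tested. The 95% intervals of TAP1, PSMB8 and PSMB9 included a fall as large as that of B2M, and those of TAP2 and TAPBP did not.

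The libraries held 4075367 to 4930079 counts with control shRNA and 3118946 to 4730453 with LYCAT shRNA, where 3 counts correspond to 0.608 to 0.967 CPM, the count per 1000000 counts of the scaled library. Replicates of either group differed beyond sampling noise (chi-square per degree of freedom 1.36 to 2.49). Each was counted as its own sample, although this spread does not show that the libraries came from separate cultures. The target LCLAT1, an acyltransferase gene, had 56.8, 61.2 and 65.3 CPM with control shRNA. With LYCAT shRNA it had 18.9, 22.6 and 23.6 CPM, which is 35.4% of control (log2 -1.50, edgeR adjusted p = 1.15e-18), so part of the transcript was still present. Epithelial markers were present at a summed 1607 to 1697 CPM with control shRNA and 1432 to 1498 CPM with LYCAT shRNA. Of the 6 epithelial markers 4 fell, beside 9.26% of all tested genes. Among these the keratins KRT8 (edgeR adjusted p = 0.0845) and KRT18 (0.365, log2 -0.10) and the cadherin CDH1 (0.178) did not pass without control libraries 1 and 2, which left KRT7. CDH1 also did not pass with DESeq2 (0.153) and passed in 1 of the 6 fits with a library left out. The 4 lung lineage markers examined summed to at most 8.79 CPM in a library, and 2 of them were at 0 in every library. Of 10 blood cell markers 5 were at 0 in every library, among them PTPRC (CD45), CD3E and MS4A1 (CD20). The list summed to 3.22 to 4.46 CPM with control shRNA and 4.20 to 6.13 CPM with LYCAT shRNA. CD68 made up most of this, at 3.22, 4.26 and 3.45 CPM with control shRNA and 3.83, 5.80 and 4.20 CPM with LYCAT shRNA. Fibroblast markers summed to 30.8 to 128 CPM in the control libraries and to 18.7 to 37.0 CPM in the LYCAT shRNA libraries. Most of that sum was the collagen gene COL1A1, at 59.4, 82.7 and 28.3 CPM in the control libraries. The collagen genes COL1A2 (14.4, 23.9 and 0.985 CPM) and COL3A1 (10.1, 17.2 and 1.23 CPM) also varied between the control libraries. DCN, LUM and PDGFRB of the same list reached at most 0.203, 3.85 and 0.608 CPM in a control library. Of the 3 tested genes of this list 0 fell with edgeR, 1 with DESeq2 and 2 with limma-voom, beside 9.26% of all tested genes with edgeR. Control libraries 1 and 2 were the high ones, so the edgeR fit and the ratios were also computed without them. The part of this difference in the results was not tested beyond that.

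The promoter windows of the 3 genes that fell are shown first: HLA-B and HLA-C, and B2M, which supplies their partner chain. RefSeq windows on GRCh38.p14 were matched for 8 of the 9 genes; they run from 250 bases before to 50 bases after the annotated start, and all lie on reference chromosomes, not on the alleles of this cell line. HLA-B was read from chr6:31357130-31357429 and HLA-C from chr6:31272043-31272342, both on the minus strand in the major histocompatibility complex, and B2M from chr15:44711267-44711566 on the plus strand. TAP1 (chr6:32853655-32853954, minus strand) and PSMB9 (chr6:32853942-32854241, plus strand) are shown as well, because they are transcribed away from each other from starts 488 bases apart and their windows share 13 bases. Capitals mark matches, on either strand, to the CCAAT box, to the interferon regulatory factor (IRF) core AANNGAAA, to the longer interferon-stimulated response element (GAAA, any 2 bases, GAAA, which contains that core), or to the NF-kB consensus.
HLA-B: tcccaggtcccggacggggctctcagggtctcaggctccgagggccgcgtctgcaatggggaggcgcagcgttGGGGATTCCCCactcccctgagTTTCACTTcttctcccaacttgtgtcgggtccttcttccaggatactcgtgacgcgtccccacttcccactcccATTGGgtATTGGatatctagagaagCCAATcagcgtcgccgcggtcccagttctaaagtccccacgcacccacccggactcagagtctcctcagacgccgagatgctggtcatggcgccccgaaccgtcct
HLA-C: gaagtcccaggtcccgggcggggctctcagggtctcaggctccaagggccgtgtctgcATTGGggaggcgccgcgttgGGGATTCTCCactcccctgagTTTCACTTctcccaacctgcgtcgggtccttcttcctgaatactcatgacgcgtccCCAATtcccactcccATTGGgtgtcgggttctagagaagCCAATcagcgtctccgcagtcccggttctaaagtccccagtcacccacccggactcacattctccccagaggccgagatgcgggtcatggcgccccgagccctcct
B2M: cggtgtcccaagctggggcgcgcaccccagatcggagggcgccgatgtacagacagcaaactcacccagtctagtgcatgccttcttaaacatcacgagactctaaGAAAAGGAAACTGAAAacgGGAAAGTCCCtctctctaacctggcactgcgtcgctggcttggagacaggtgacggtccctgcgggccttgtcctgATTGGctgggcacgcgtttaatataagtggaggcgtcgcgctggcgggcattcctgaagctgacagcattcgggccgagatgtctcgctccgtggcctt
TAP1: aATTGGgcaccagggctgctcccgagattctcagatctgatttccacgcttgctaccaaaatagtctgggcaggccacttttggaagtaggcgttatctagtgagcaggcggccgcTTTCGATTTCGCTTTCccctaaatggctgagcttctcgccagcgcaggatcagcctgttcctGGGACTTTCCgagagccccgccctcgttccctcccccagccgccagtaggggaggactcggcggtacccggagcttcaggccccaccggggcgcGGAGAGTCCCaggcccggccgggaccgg
PSMB9: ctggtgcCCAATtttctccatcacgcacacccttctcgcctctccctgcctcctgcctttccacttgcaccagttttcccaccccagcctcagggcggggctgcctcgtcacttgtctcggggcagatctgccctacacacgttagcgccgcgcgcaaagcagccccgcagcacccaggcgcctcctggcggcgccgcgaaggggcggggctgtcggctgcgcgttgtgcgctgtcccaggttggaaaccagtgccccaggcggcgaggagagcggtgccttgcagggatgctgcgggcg

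The HLA-B and HLA-C windows were identical at 88.5% of 304 aligned positions. Both held 1 match to the IRF core, beginning 155 and 151 bases before the start, and a match to the NF-kB consensus further upstream, beginning 177 and 172 bases before the start; neither held the longer response element. In HLA-B the NF-kB stretch gave 3 matches at 2 overlapping places, 1 of them matched on both strands. The B2M window held 2 overlapping matches to the longer element, beginning 144 and 138 bases before the start, and the TAP1 window held 2, beginning 134 and 128 bases before it. Over the 8 matched genes, the longer element was found in 4 (B2M, TAP1, TAP2 and TAPBP) against 3.57% of all 35116 promoter windows of this length. The IRF core was found in 6 of the 8 against 22.8% of all windows, the NF-kB consensus in 5 against 7.73%, and CCAAT in 5 against 34.6%. These counts use the first listed window of each gene; TAP1 and PSMB8 have another, and in PSMB8 only that other one held the IRF core and the longer element. Genes with and without the longer element were found both among those that fell and among those that did not pass.

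HLA-B, a heavy chain that presents peptides to CD8 T cells, was measured at 224, 209 and 211 CPM with control shRNA, in the order of libraries 1 to 3 used throughout. With LYCAT shRNA it was measured at 158, 158 and 162 CPM. Every LYCAT shRNA library lay below every control library, which holds for 16.2% of all tested genes. The mean went from 214 ± 7.87 to 159 ± 2.12 CPM (SD, n = 3 each), a log2 fold change of -0.43 (SE 0.0604, 95% interval -0.55 to -0.31, edgeR quasi-likelihood adjusted p = 3.67e-08). The size was close to the median of 0.41 among all genes that fell. By p-value HLA-B was number 185 of the 11097 tested genes. In bulk RNA, fewer cells with the transcript and less transcript per cell cannot be told apart.

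HLA-C, the heavy chain that is also a main ligand of killer cell immunoglobulin-like receptors on NK cells, stood at 563, 570 and 536 CPM in the control libraries. In the LYCAT shRNA libraries it stood at 466, 461 and 473 CPM. The groups again did not overlap. The mean went from 556 ± 18.0 to 467 ± 5.85 CPM (SD, n = 3 each), with a log2 fold change of -0.25 (SE 0.0475, 95% interval -0.35 to -0.16, edgeR adjusted p = 2.94e-05). HLA-B and HLA-C kept their calls without any single library and without control libraries 1 and 2 together (log2 -0.40 and -0.20, edgeR adjusted p = 0.000165 and 0.0118, with the 1 control left taken to have the spread of the other libraries).

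B2M, the light chain that all of these heavy chains need to reach the cell surface, had control levels of 787, 662 and 809 CPM and LYCAT shRNA levels of 643, 680 and 659 CPM. Control library 2 was low and fell among the LYCAT shRNA libraries, so the groups overlapped. The mean went from 753 ± 79.5 to 661 ± 18.9 CPM (SD, n = 3 each), with a log2 fold change of -0.19 (SE 0.053, 95% interval -0.30 to -0.08, edgeR adjusted p = 0.00911). The call was lost without control library 1 (log2 -0.15, edgeR adjusted p = 0.0755), control library 3 (-0.13, 0.108), LYCAT shRNA library 1 (-0.17, 0.0902) or LYCAT shRNA library 3 (-0.18, 0.0718). Without control library 2 the log2 fold change was -0.27 (edgeR adjusted p = 2.75e-08), and without control libraries 1 and 2 together it was -0.29 (3.84e-05). In each of these 4 leave-out fits that lost B2M, 2 of the 9 genes fell.

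**Figure D1:**
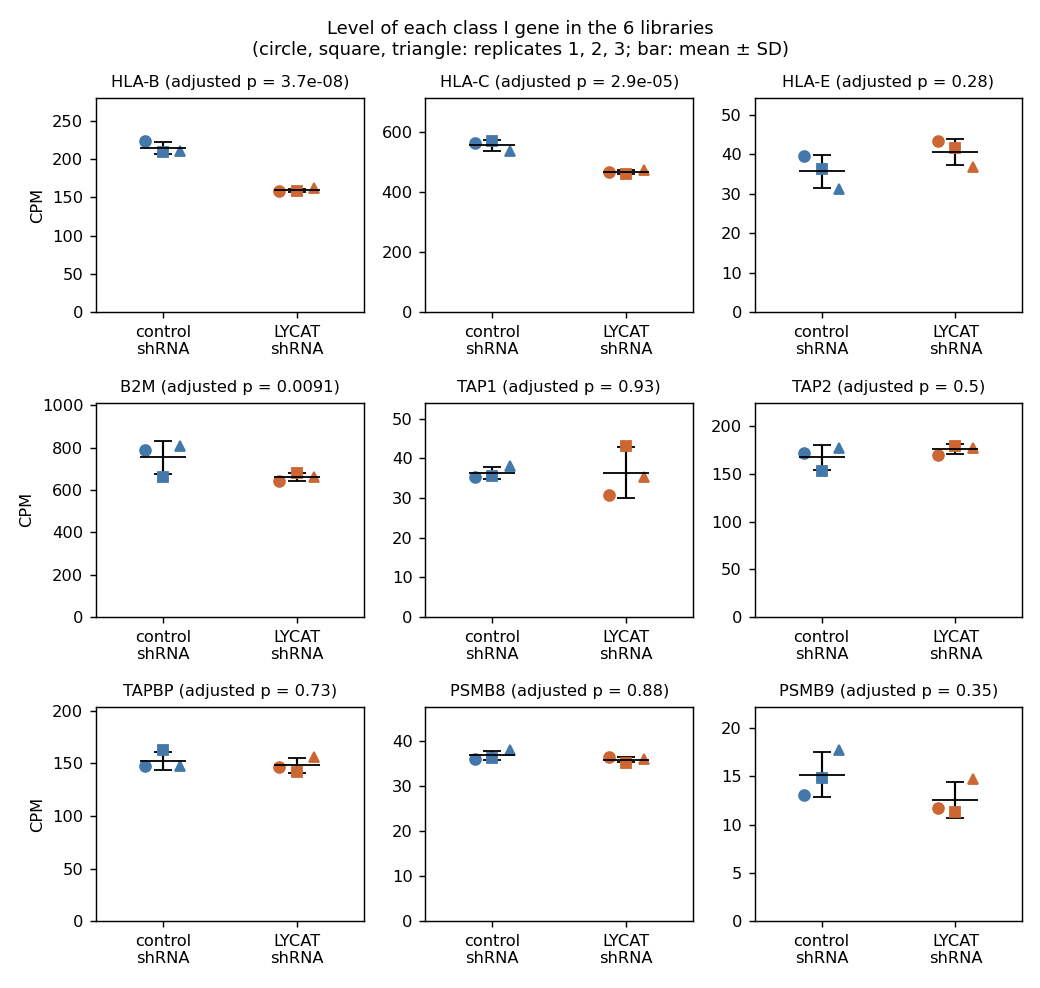
Level of each of the 9 genes in CPM (vertical axis from 0) in the 3 control shRNA and 3 LYCAT shRNA libraries, with the mean and SD of each group and the edgeR adjusted p in the panel title. The LYCAT shRNA points of HLA-B and HLA-C lie below all control points, while those of the other 7 genes overlap with the controls.

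HLA-E, which presents leader peptides of other class I chains to the NKG2A receptor of NK cells, had values on the other side of no change. Its control levels were 39.7, 36.3 and 31.3 CPM and its LYCAT shRNA levels 43.4, 41.6 and 36.9 CPM, with overlap between the groups. The log2 fold change was 0.18 (95% interval -0.04 to 0.40, edgeR adjusted p = 0.284). The interval of HLA-E lies wholly above that of HLA-B. The difference between these genes was looked at as a ratio within each library, together with the other gene pairs.

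Other nonclassical and class I-like genes either did not pass or were too low to test. HLA-F, a nonclassical heavy chain, had a log2 fold change of -0.13 (95% interval -0.54 to 0.29, edgeR adjusted p = 0.739) and MR1, which presents microbial metabolites, of 0.18 (-0.14 to 0.50, adjusted p = 0.489). The genes that were too low were HLA-G, HLA-H, CD1D, HFE and FCGRT.

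The heavy chain genes are similar in sequence, and the counting rules for reads that match several of them are not given in the sources used here, so single heavy chain values are uncertain. In the GENCODE v29 reference transcripts, 2.47% of 50-base windows of HLA-B, 6.58% of HLA-C and 4.66% of HLA-E also occurred in another of 6 heavy chain genes. At 100 bases these shares were 0%, 0.275% and 0.6%. The alleles that H2122 cells carry differ from the reference in places that these files do not show, and their part in the levels was not tested. With the counts of 7 heavy chain genes summed, the level went from 1435 ± 30.4 to 1271 ± 29.7 CPM (SD, n = 3 each), a log2 fold change of -0.17 (SE 0.0416, edgeR adjusted p = 0.00115).

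TAP1, a subunit of the peptide transporter, had control levels of 35.4, 35.5 and 38.2 CPM and LYCAT shRNA levels of 30.6, 43.2 and 35.3 CPM. LYCAT shRNA libraries 1 and 2 were the lowest and the highest of all 6, and the log2 fold change was -0.02 (95% interval -0.25 to 0.21, edgeR adjusted p = 0.931). TAP2, the partner subunit, had 173, 153 and 178 CPM with control shRNA and 170, 180 and 178 CPM with LYCAT shRNA, with a log2 fold change of 0.07 (95% interval -0.06 to 0.20, adjusted p = 0.499). For TAP2 the interval allows neither a fall as large as that of HLA-C nor a rise above 0.20.

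TAPBP, which encodes the peptide-loading chaperone tapasin, had control levels of 148, 163 and 147 CPM and LYCAT shRNA levels of 147, 142 and 156 CPM. The groups overlapped and the log2 fold change was -0.04 (95% interval -0.17 to 0.09, edgeR adjusted p = 0.726). PSMB8, the immunoproteasome subunit known as LMP7, had 36.0, 36.3 and 37.9 CPM with control shRNA and 36.4, 35.2 and 36.0 CPM with LYCAT shRNA, within a narrow range. Its log2 fold change was -0.03 (95% interval -0.25 to 0.19, adjusted p = 0.884).

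PSMB9, the immunoproteasome subunit known as LMP2, was the least abundant of the 9 by CPM. Its control levels were 13.1, 14.8 and 17.7 CPM, from 61, 73 and 72 counts, and its LYCAT shRNA levels 11.7, 11.3 and 14.7 CPM, from 55, 35 and 63 counts, so the groups overlapped. The log2 fold change was -0.26, as large as that of HLA-C, but its interval was wide (-0.62 to 0.10, edgeR adjusted p = 0.348). A fall of that size was not detectable at this depth for PSMB9. TAP1, whose start lies 488 bases from that of PSMB9, had its log2 fold change at -0.02.

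Per kb of transcript in control cells, B2M, HLA-C and HLA-B were the most abundant of the 9 genes, whichever transcript length was used. The size of these levels depended on the length: with the median coding transcript length B2M stood at 744 ± 78.6, HLA-C at 362 ± 11.7, HLA-B at 323 ± 11.8 and TAPBP at 90.4 ± 5.21 CPM per kb (SD, n = 3). With the longest coding GENCODE v29 transcript of each gene, B2M stood at 442 ± 46.6, HLA-C at 358 ± 11.6, HLA-B at 139 ± 5.09 and TAPBP at 40.5 ± 2.34 CPM per kb (SD, n = 3). TAP2 and PSMB8 followed at 29.5 ± 2.28 and 27.2 ± 0.768 CPM per kb; their library ranges overlapped (26.9 to 31.2 and 26.7 to 28.1), and their order turned with the median transcript length. PSMB9 stood at 19.2 ± 2.97, HLA-E at 13.7 ± 1.62 and TAP1 at 12.3 ± 0.538 CPM per kb, and the order of the last pair, whose library ranges also overlapped, turned too. HLA-B, HLA-C and B2M, the genes that fell, were thus the most abundant of the 9 on this scale. The SE of their log2 fold changes was 0.0475 to 0.0604, so small changes were easier to call in them than in some others. It was 0.0632 and 0.0651 for TAP2 and TAPBP, and 0.110 to 0.180 for HLA-E, TAP1, PSMB8 and PSMB9. A link between level and fall was not tested.

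**Figure D2:**
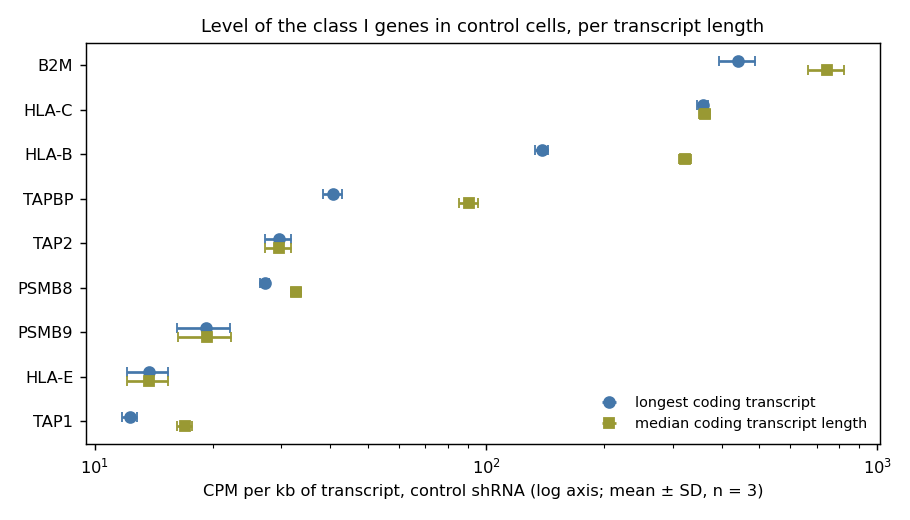
Level of the 9 genes with control shRNA in CPM per kb of transcript (log axis, mean and SD of 3 libraries), once with the longest coding transcript of each gene and once with the median coding transcript length. B2M, HLA-C and HLA-B are highest by both lengths, while TAP2 and PSMB8, and HLA-E and TAP1, trade places between them.

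Ratios of gene pairs within a library do not depend on how libraries are scaled. Of 6 pairs listed with the tests, the HLA-B to HLA-C ratio was lower with LYCAT shRNA in 3 of 3 libraries: its log2 value was -1.33, -1.44 and -1.35 in the control libraries and -1.56, -1.54 and -1.55 in the LYCAT shRNA libraries. The mean difference was -0.17 (exact two-sided permutation p = 0.1, the smallest that 3 against 3 libraries can give; 0.3 after Benjamini-Hochberg adjustment over the 6 pairs). The same p values belonged to PSMB8 over the constitutive PSMB5, which differed by -0.16, with control values of -3.09, -3.19 and -3.04 and LYCAT shRNA values of -3.23, -3.25 and -3.31. PSMB9 over PSMB6 differed by -0.31 (exact permutation p = 0.2, adjusted 0.4) and PSMB10 over PSMB7 by -0.03 (0.8, adjusted 0.8), both with overlap. The summed HLA-B and HLA-C counts over B2M differed by -0.12 (exact permutation p = 0.4, adjusted 0.6) and TAP1 over TAP2 by -0.08 (0.6, adjusted 0.72).

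The pair of HLA-B and HLA-E was added after the values were seen. Its log2 ratio was 2.49, 2.52 and 2.74 with control shRNA and 1.86, 1.92 and 2.13 with LYCAT shRNA, and the groups did not overlap. The difference was -0.62 (exact two-sided permutation p = 0.1, and 0.233 after adjustment over all 7 pairs). This test cannot pass 0.05 with 3 libraries against 3.

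**Figure D3:**
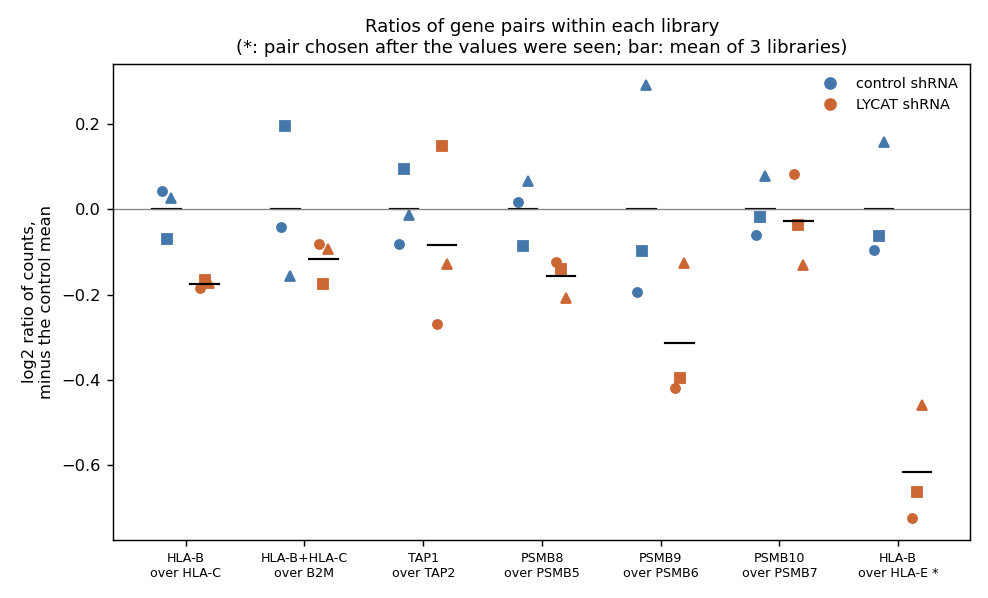
Log2 ratio of the counts of 7 gene pairs in each library, minus the control mean of that pair, for control shRNA and LYCAT shRNA; bars are means of 3 libraries. HLA-B over HLA-E lies below all control values, with a mean difference of -0.62, and TAP1 over TAP2 and PSMB10 over PSMB7 overlap.

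Helpers of class I folding in the endoplasmic reticulum fell in 2 of 5 tested genes and rose in 0, where 9.26% of all tested genes fell and 9.81% rose. At an unadjusted p under 0.05 there were 3 lower and 0 higher, and DESeq2 and limma-voom again gave 2 and 0. CALR, the chaperone calreticulin of the peptide-loading complex, fell 1.22-fold, from 249, 248 and 233 CPM to 194, 200 and 207 CPM (log2 -0.29, SE 0.0577, edgeR adjusted p = 0.000108). GANAB, the glucosidase subunit that trims glycans so that these chaperones can bind, fell 1.16-fold from 284 ± 9.09 to 244 ± 10.7 CPM (SD, n = 3 each; adjusted p = 0.00204). CANX, calnexin, had a log2 fold change of -0.07, PDIA3, the oxidoreductase ERp57 of the loading complex, of 0.04, and UGGT1, the glycan quality sensor, of -0.18; none of these passed. TAPBPL, a tapasin relative, was too low to test. CALR and GANAB serve glycoprotein folding in general and are not particular to class I. The list median was -0.18 against -0.01 over all tested genes.

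None of the 6 peptide-trimming genes passed with edgeR, at an unadjusted p under 0.05, or with DESeq2 or limma-voom. The endoplasmic reticulum aminopeptidases ERAP1 and ERAP2, which cut peptides to the length class I molecules bind, had log2 fold changes of -0.14 and -0.06. NPEPPS (-0.07), TPP2 (0.06) and THOP1 (-0.03), which cut peptides in the cytosol, and LNPEP (0.38), which acts in endosomes, completed the list; the interval of LNPEP, at 11 to 25 counts a library, ran from -0.27 to 1.03.

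Other immunoproteasome and activator genes also gave 0 of 4 by each of these measures: PSMB10, the third inducible catalytic subunit (log2 0.11), PSME1 (-0.09) and PSME2 (-0.06), the subunits of the PA28 activator, and the assembly factor POMP (0.04). The constitutive catalytic subunits PSMB5, PSMB6 and PSMB7 had log2 fold changes of 0.12, 0.05 and 0.13, and 0 of 3 passed by edgeR, DESeq2 or limma-voom, with 2 higher at an unadjusted p under 0.05. PSMB7 was near the threshold (edgeR adjusted p = 0.0528).

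**Figure D4:**
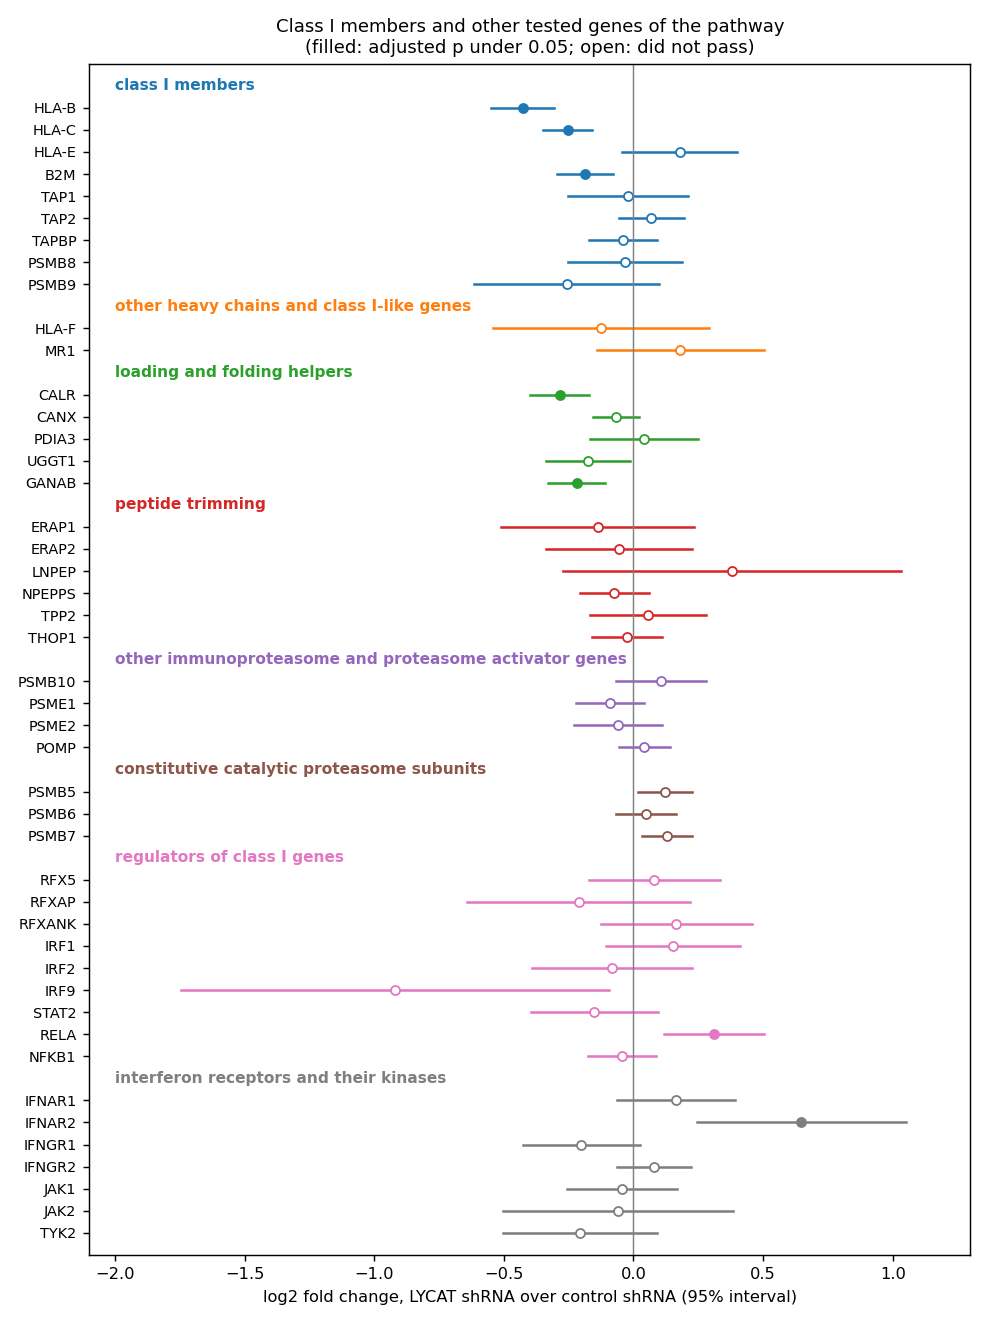
Log2 fold change with its 95% interval (horizontal axis) for the 9 genes and for other tested genes of 7 lists of the pathway, grouped by role; filled points passed at an edgeR adjusted p under 0.05. HLA-B, HLA-C, B2M, CALR and GANAB are the filled points on the lower side, and RELA and IFNAR2 those on the higher side.

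Among 10 tested regulators of class I genes 1 rose and 0 fell, where 9.81% of all tested genes rose and 9.26% fell. A count of 1 in 10 is near the share that rose. RELA, the p65 subunit of NF-kB, rose 1.24-fold from 50.2, 53.5 and 44.3 CPM to 68.7, 55.5 and 58.6 CPM (edgeR adjusted p = 0.016); it did not pass with DESeq2 (adjusted p = 0.0995), without control library 3 (0.106) or without LYCAT shRNA library 1 (0.236). NLRC5, the transactivator that drives class I, TAP1 and PSMB9 transcription, was too low to test, at 5, 4 and 4 counts in the control libraries and 14, 7 and 3 in the LYCAT shRNA libraries. The RFX subunits that bind class I promoters with NLRC5 did not pass (RFX5 at log2 0.08, RFXAP at -0.21, RFXANK at 0.17). The same held for IRF1 (0.15), IRF2 (-0.08), STAT2 (-0.15) and NFKB1 (-0.04). IRF9, the DNA-binding subunit of the type I interferon factor ISGF3, had a log2 value of -0.92 on 5 to 16 counts a library (edgeR adjusted p = 0.111). Its LYCAT shRNA libraries all lay below the controls, which holds for 16.2% of all tested genes.

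Of 7 genes for interferon receptors and their kinases 1 rose and 0 fell, beside 9.81% and 9.26% of all tested genes. IFNAR2, a type I interferon receptor chain, rose 1.57-fold from 6.64, 10.7 and 8.87 CPM to 14.9, 15.5 and 11.2 CPM (edgeR adjusted p = 0.0152). It did not pass with DESeq2 (adjusted p = 0.0982), without control library 1 (0.133), without LYCAT shRNA library 1 (0.0996) or 2 (0.0724), or without control libraries 1 and 2 together (0.161). IFNAR1 (log2 0.16), IFNGR1 (-0.20), IFNGR2 (0.08), JAK1 (-0.04), JAK2 (-0.06) and TYK2 (-0.21) did not pass.

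Interferon-stimulated genes beyond the class I pathway fell in 5 of 15 tested genes and rose in 1, where 9.26% of all tested genes fell and 9.81% rose. DESeq2 gave 4 lower and 1 higher, limma-voom 6 and 1, and an unadjusted p under 0.05 gave 7 and 1. The largest fall was that of IFI27, at 89, 99 and 77 counts in the control libraries and 4, 6 and 3 in the LYCAT shRNA libraries (log2 -4.13, edgeR adjusted p = 2.11e-20). IFI44, IFI44L and IFI6 fell by 2.81, 1.01 and 1.17 on the log2 scale. GBP1, a guanylate-binding protein induced strongly by interferon gamma, rose 2.18-fold from 3.00, 5.47 and 4.68 CPM to 9.14, 9.35 and 10.3 CPM (edgeR adjusted p = 0.000577; 0.0535 without control libraries 1 and 2 together). OAS1, which makes the activator of an antiviral ribonuclease, fell by 0.98 (edgeR adjusted p = 0.0139) and did not pass without control library 3 (0.0787), without LYCAT shRNA library 1 (0.161) or with DESeq2 (0.1). TAP1, PSMB8 and PSMB9 are interferon-inducible as well and did not pass, while HLA-B, HLA-C and B2M fell. The IRF core lay in the first listed windows of HLA-B, HLA-C and B2M. It also lay in those of TAP1, TAP2 and TAPBP, which did not pass. Any part of interferon in these changes was not tested.

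Class II genes, which present peptides from outside the cell on specialised immune cells, were near 0. Of 12 genes 1 was high enough to test, HLA-DMA, which loads peptides onto class II molecules (log2 0.21, edgeR adjusted p = 0.705). The class II regulator CIITA had 0 counts in every library, and the whole list summed to 6.65 to 11.4 CPM with control shRNA and 7.09 to 8.41 CPM with LYCAT shRNA.

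Of 8 tested ligands of NK and T cell receptors 2 rose and 0 fell with edgeR, beside 9.81% and 9.26% of all tested genes. With DESeq2 0 passed, and with limma-voom 1 rose. MICA, a stress-induced class I-like ligand of the NKG2D receptor, rose 1.31-fold from 21.0, 23.1 and 26.8 CPM to 30.6, 29.3 and 32.0 CPM (edgeR adjusted p = 0.0246). It did not pass with DESeq2 (adjusted p = 0.134), without control library 1 or 2 (0.134 and 0.054), without LYCAT shRNA library 1 or 3 (0.0754 and 0.108), or without control libraries 1 and 2 together (0.544, log2 0.20). PVR, a ligand of DNAM-1 and TIGIT, rose 1.23-fold (edgeR adjusted p = 0.0479) and did not pass without control library 1 (0.317, log2 0.19) or 3 (0.108), or without LYCAT shRNA library 2 (0.138) or 3 (0.264). It did not pass without control libraries 1 and 2 together (0.19) either, nor with limma-voom (0.066), DESeq2 (0.191), robust=FALSE (0.0607) or library totals (0.0621). CD274, which encodes PD-L1 and was named after its values were seen, had a log2 value of 0.82 and did not pass (edgeR adjusted p = 0.0736).

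The profile over the 6 libraries most like that of HLA-B, among genes of at least 5 CPM, was sought by the root mean square difference of log2 CPM centred on the control mean. C9orf100 was nearest, at a difference of 0.0252, followed by HMGB2 (0.0272), a chromatin protein of dividing cells, STMN1 (0.0278), which destabilises microtubules, EPRS (0.0301), an aminoacyl-tRNA synthetase, and AFF1 (0.0332), a transcription elongation factor. Their log2 fold changes ran from -0.46 to -0.40 against -0.43 for HLA-B. AFF1 passed in 2 of the 6 fits with a library left out, and the other 4 genes in all 6. The 6 libraries fall into 2 groups, and the likeness is a description of these libraries.

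**Figure D5:**
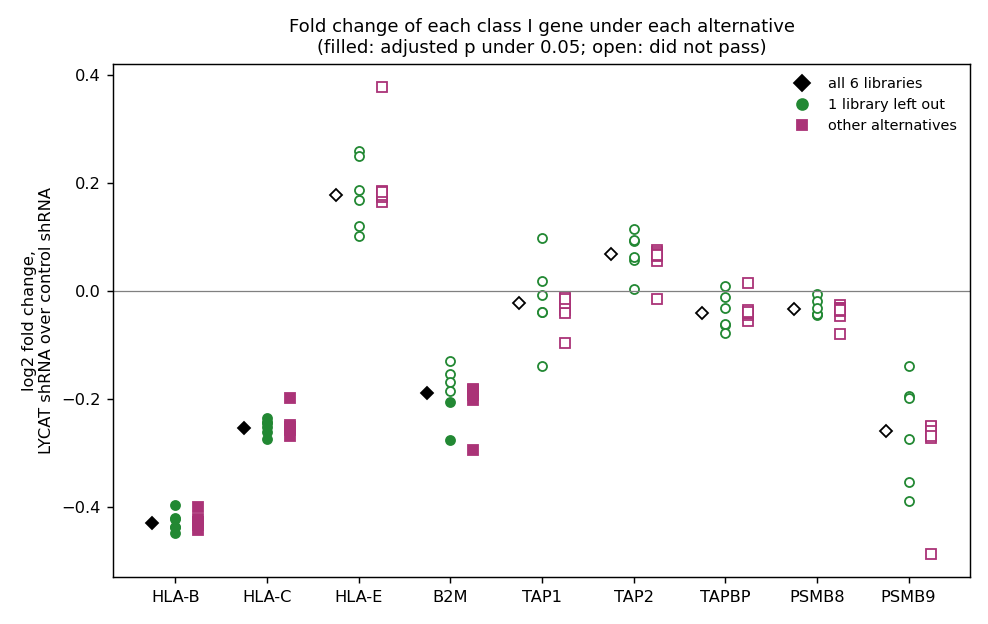
Log2 fold change of each of the 9 genes with all 6 libraries, with 1 library left out, and under the other alternatives (filled points passed at an adjusted p under 0.05). HLA-B and HLA-C are filled throughout, B2M is filled in 2 of the 6 fits with a library left out, and the other 6 genes are open throughout. The fit with summed heavy chains is not drawn.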

How the data were processed

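RNA of 6 libraries of H2122 cells (3 control shRNA, 3 LYCAT shRNA) was analysed from 1 table of raw counts per gene that the authors deposited. The labels' protocol speaks of an array, while the values are whole-number counts. The submitters' processing notes name featureCounts 1.5.1, Bowtie2, BWA 0.7.15 and bcl2fastq 2.17 and the builds hg19 and mm10; which of these made the table, the use of strand and the rules for shared reads are not given in the sources used here. Columns named as controls went to that group, and columns whose name reads as a misspelling of LYCAT went to the other. Genes were filtered with filterByExpr, libraries scaled by TMM (factors 0.993 to 1.01), and groups compared with edgeR 4.0.16 in R 4.3.3 (quasi-likelihood F test, robust=TRUE, group as the only term), with Benjamini-Hochberg adjustment over all 11097 tested genes. CPM used scaled library sizes, and SE is the log2 fold change divided by the square root of F. Per-kb levels and shared windows used GENCODE v29 transcripts; promoters came from RefSeq GRCh38.p14 and were aligned with Biopython 1.88. Ratios used counts plus 1. The code was tested on simulated data. Alternatives included DESeq2 1.42.0, limma-voom (limma 3.58.1), other scalings and filters, a replicate block and leaving out libraries.

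Members of the lists of 8 or fewer genes are named, and from longer lists up to 4 changed genes in each direction plus some regulators and low genes named after their values were seen. The 9 genes, the lists, the tests and the alternatives were chosen with earlier results of these data known. Lung lineage markers are given only as a sum, and some listed genes are not reported here.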

Additional observations from a re-analysis of the deposited data

How the results depend on the processing

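HLA-B and HLA-C passed as lower under every alternative that kept all libraries and single genes. There they ran from -0.44 to -0.42 and from -0.27 to -0.25 on the log2 scale. Without control libraries 1 and 2 they stood at -0.40 and -0.20. The sum of the heavy chain genes (-0.17) contains both genes, so it is no test of either. With 1 library left out HLA-B ran from -0.45 to -0.40 and HLA-C from -0.27 to -0.24, and both passed in each fit. B2M passed under all 9 alternatives other than leaving out a single library (-0.29 to -0.18), and ran from -0.27 to -0.13 with 1 library left out, passing in 2 of 6. The count of genes that fell among the 9 was 2 to 3 with a library left out and 3 otherwise, and 0 rose in any fit. The sum of the heavy chain genes had the opposite sign to HLA-E (log2 -0.17, edgeR adjusted p = 0.00115), and HLA-E is a small part of that sum. Genes near no change crossed 0 without passing: TAP1 ran from -0.14 to 0.10 and TAPBP from -0.0779 to 0.00993 with a library left out, and without control libraries 1 and 2 TAP2 was -0.0150 and TAPBP 0.0148. The TAP1 to TAP2 ratio difference ran from -0.198 to 0.00982 and that of PSMB10 to PSMB7 from -0.0836 to 0.0223 with a library left out, and HLA-B plus HLA-C over B2M was 0.0393 without control libraries 1 and 2. Over all tested genes 2117 changed (1089 rose, 1028 fell), against 1193 (635 and 558) with DESeq2, whose cause was not tested, and 1129 (573 and 556) without control libraries 1 and 2, a fit on fewer libraries; with 1 library left out 1448 to 2228 changed. Scaled by library totals 1127 fell in place of 1028.

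The labels do not say whether the replicate numbers pair the libraries. Deviations of same-numbered libraries from their group means correlated at 0.01, -0.06 and -0.05 over genes. Those of differently numbered libraries correlated at -0.08 to 0.12, and these values do not settle whether libraries were paired. With the replicate block 2046 genes changed and the same 3 of the 9 genes fell (HLA-B -0.43, HLA-C -0.25, B2M -0.19). Depth limits PSMB9, HLA-E, TAP1 and PSMB8 most, whose 95% intervals span over 0.4 on the log2 scale.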
